A study of Mus musculus with 22 samples.

Results

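Dividing cells switch on a shared set of genes, some to copy the DNA and others to separate the copies, and 47 of these mitotic cell cycle genes were followed here in the mouse ovary from fetal life to old age. They were taken by gene name from a table of 34745 genes. The 47 fall into 16 replication genes, which license origins, open and copy the DNA, supply nucleotides or drive entry into S phase, and 31 mitosis genes, which drive the entry into division, build the spindle, check chromosome attachment and divide the cell. RNA of whole ovaries from CD1 mice, an outbred stock of wild-type animals, was sequenced in bulk with 2 libraries per age and 22 in all. The fetal ages were E13, E15 and E17 (days of embryonic development). The others were the day of birth (P0), postnatal days given as P3, P7, P14, P21 and P60, and the adult ages 1 year (Y1) and 2 years (Y2). No transgene or agent is named for any group, and by their labels the groups differ by age alone. The labels name neither cycle stage nor pooling, and do not say whether both libraries of an age came from different animals. P-values here therefore cover only how far such libraries scatter, which could be technical. Values are FPKM, the deposited measure of transcript abundance per length and per library, and differences are given on the log2(FPKM + 1) scale, the later age minus the earlier.

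Before a cell divides, the MCM helicase is loaded at origins by CDC6 and CDT1, geminin blocks reloading, and E2F1 with the E-type cyclins starts S phase. Many of the genes for mitosis are switched on later, through MYBL2, FOXM1 and the MuvB complex. The products of these genes run the spindle and its checkpoint until the anaphase-promoting complex releases the chromatids. In the ovary, germ cells divide as oogonia until they enter meiosis in the fetus. Oocytes then rest in meiotic prophase and store transcripts while they grow, and the granulosa cells around them divide as follicles develop. In whole tissue, fewer cells of a type and less RNA per cell cannot be told apart.

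The promoters of the 47 genes were read first, because the replication and the mitosis genes are known to be switched on through different short motifs. RefSeq windows of 250 bases before the transcript start (mouse build GRCm38.p6) were at hand for 39 of the 47 genes, 41 windows in all, and were set against 32851 windows of all genes. The motifs were the cell cycle homology region (CHR, searched as TTTGAA and TTCGAA), the CCAAT box (CCAAT) and the E2F site (TTCCCGC or TTCGCGC or TTGCCGC or TTGGCGC), each on both strands, with overlapping matches allowed. Mcm4, Ccna2, Ccne2, Gmnn, Tpx2, Foxm1, Aurkb and Kif20a had no window. A CHR match lay in 11 of 27 windows of mitosis genes (40.7%) and in 3 of 14 windows of replication genes (21.4%), against 17.2% of all windows. CCAAT lay in 20 of 27 mitosis windows (74.1%) and 9 of 14 replication windows (64.3%), against 33.9% of all. E2F letters lay in 3 of 27 mitosis windows (11.1%) and 6 of 14 replication windows (42.9%), against 7.89% of all. CHR and CCAAT stood together in 10 of 27 mitosis windows and 3 of 14 replication windows, against 6.02% of all windows. A match describes these letters and is not a site of binding.

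The windows printed here belong to genes whose levels the results turn on, with each match in capitals. Cdc20 (chr4:118437344-118437593, minus strand), the activator of the anaphase-promoting complex, Ccnb2 (chr9:70421555-70421804, minus strand), which encodes cyclin B2, Ube2c (chr2:164769679-164769928, plus strand), the E2 enzyme of that complex, and Kif11 (chr19:37376132-37376381, plus strand), a motor that pushes spindle poles apart, each held CHR and CCAAT letters. In Ube2c, a CCAAT match on each strand overlaps in CCAATTGG.
Cdc20: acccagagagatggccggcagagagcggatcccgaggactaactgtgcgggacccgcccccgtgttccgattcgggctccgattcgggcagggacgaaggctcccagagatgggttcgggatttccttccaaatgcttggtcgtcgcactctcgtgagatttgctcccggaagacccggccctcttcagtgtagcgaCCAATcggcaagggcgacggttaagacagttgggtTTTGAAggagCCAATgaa
Ccnb2: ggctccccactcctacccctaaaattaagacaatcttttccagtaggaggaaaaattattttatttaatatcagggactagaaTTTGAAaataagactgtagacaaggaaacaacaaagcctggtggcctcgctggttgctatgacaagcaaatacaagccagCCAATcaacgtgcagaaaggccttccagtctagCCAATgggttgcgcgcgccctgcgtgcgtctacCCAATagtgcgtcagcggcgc
Ube2c: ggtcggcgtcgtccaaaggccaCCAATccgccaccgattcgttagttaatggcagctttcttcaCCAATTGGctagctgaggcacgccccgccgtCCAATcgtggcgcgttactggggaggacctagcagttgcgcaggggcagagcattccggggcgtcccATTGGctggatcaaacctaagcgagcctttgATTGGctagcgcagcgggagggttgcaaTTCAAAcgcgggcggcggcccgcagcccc
Kif11: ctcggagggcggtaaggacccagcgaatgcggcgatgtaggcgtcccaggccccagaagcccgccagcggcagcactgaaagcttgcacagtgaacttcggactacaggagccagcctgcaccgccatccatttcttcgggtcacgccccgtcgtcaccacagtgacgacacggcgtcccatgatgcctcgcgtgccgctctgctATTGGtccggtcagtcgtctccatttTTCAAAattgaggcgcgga
The related checkpoint kinase genes Bub1 (chr2:127831860-127832109, minus strand) and Bub1b (chr2:118597961-118598210, plus strand) are shown because their levels parted after birth. Bub1 held CCAAT letters alone, and Bub1b held CHR and CCAAT letters.
Bub1: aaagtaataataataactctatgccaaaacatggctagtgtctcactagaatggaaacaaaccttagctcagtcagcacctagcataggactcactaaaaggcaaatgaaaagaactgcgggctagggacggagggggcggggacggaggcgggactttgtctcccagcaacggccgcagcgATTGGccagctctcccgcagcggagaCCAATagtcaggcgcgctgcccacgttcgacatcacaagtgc
Bub1b: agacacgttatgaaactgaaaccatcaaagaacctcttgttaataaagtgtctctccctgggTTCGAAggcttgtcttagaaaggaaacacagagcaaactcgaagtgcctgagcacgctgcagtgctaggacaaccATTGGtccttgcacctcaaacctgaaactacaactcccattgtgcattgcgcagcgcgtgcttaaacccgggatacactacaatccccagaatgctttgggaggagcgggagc
Mybl2 (chr2:163054385-163054634, plus strand), a transcription factor of the MuvB complex, had the highest correlation with the growing oocyte genes over the 11 age means. Its window holds no exact match to the letters searched. Near its end the window reads ttggcgg, close to the E2F letters TTGGCGC, and inexact matches were not searched. Whether E2F acts on Mybl2 was not tested.
Mybl2: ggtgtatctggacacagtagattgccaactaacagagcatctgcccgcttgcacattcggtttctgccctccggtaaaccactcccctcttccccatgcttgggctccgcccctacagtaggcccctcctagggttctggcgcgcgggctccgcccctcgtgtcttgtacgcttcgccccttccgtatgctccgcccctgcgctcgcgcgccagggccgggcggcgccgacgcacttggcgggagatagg
Mcm5 (chr8:75109259-75109508, plus strand) and Mcm6 (chr1:128359706-128359955, minus strand), subunits of the replicative helicase, each held E2F and CCAAT letters, and Pcna (chr2:132253181-132253430, minus strand), the sliding clamp of the polymerases, held CCAAT letters alone.
Mcm5: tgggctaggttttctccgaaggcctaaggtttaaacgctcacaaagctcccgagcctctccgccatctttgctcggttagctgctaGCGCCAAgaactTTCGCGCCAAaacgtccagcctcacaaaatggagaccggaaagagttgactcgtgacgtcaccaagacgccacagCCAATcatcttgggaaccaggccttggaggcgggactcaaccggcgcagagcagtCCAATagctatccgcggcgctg
Mcm6: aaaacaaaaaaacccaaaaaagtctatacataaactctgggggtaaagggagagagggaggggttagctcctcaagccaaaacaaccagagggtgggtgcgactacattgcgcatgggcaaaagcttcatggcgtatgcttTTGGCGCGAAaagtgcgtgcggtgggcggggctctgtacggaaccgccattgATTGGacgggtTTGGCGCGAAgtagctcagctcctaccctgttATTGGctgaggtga
Pcna: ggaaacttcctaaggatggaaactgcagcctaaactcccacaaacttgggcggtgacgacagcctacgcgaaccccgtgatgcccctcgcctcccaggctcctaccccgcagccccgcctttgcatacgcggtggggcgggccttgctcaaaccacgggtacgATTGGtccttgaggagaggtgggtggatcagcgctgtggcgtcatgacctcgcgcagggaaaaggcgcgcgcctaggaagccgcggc

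The libraries held an estimated 11470000 to 18140000 reads, so 1 FPKM of a 2 kb transcript stood for 23.0 to 36.3 reads. All 47 genes passed the filter of at least 1 FPKM in 2 libraries, as did 16117 of all genes, and 25 of the 1034 values of the 47 genes lay under 1 FPKM. The fetal columns carry fewer decimals than the others, so fetal and postnatal libraries may not have been quantified together. For 20 of the 47 genes over 5% of the 31-base words of their transcripts also occur in transcripts of other genes, among them Mcm7 (33.4%), Ccnb1 (27.8%), Cdc20 (26.7%), Kif20a (26.7%), Ube2c (25.3%), Pcna (23.3%), Mybl2 (21.1%) and Plk1 (18.7%). How such reads were divided, and whether strand was used, is not given in the sources used here, so the levels of these genes are uncertain.

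Some libraries stood apart from their partner. At E17, 46 of the 47 genes were higher in replicate 2, by a median of 0.26. Mki67, the proliferation marker Ki-67, had 30.5 and 81.9 FPKM in the E17 libraries, and Rrm2, the small subunit of ribonucleotide reductase, had 16.6 and 37.1. In the same library 13 of 14 erythroid genes were higher, by a median of 1.29, and their summed level was 1581 and 3565 FPKM in replicates 1 and 2. At P0, 24 of the 47 genes were higher in replicate 2, with a median of 0.007. They were 3 of 16 replication genes and 21 of 31 mitosis genes, with medians of -0.24 and 0.05. Mki67, at 31.8 and 60.2 FPKM in the P0 libraries, differed the most upward. There 12 of 14 erythroid genes were higher in replicate 2, with summed levels of 579.9 and 4282 FPKM. At P14, 6 of the 47 genes and 1 of 20 growing oocyte genes were higher in replicate 2, with medians of -0.20 and -0.33, and at P60 7 of the 47 genes were. At Y2, 7 of the 47 genes were higher in replicate 2, and 0 of 20 growing oocyte genes were, with summed oocyte levels of 131 and 34.7 FPKM. No erythroid gene was listed at 0 in both E17 libraries, and Hba-x and Hbb-bh1 were at P0. The part of red cells and oocytes in these differences was not tested.

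**Figure D1:**
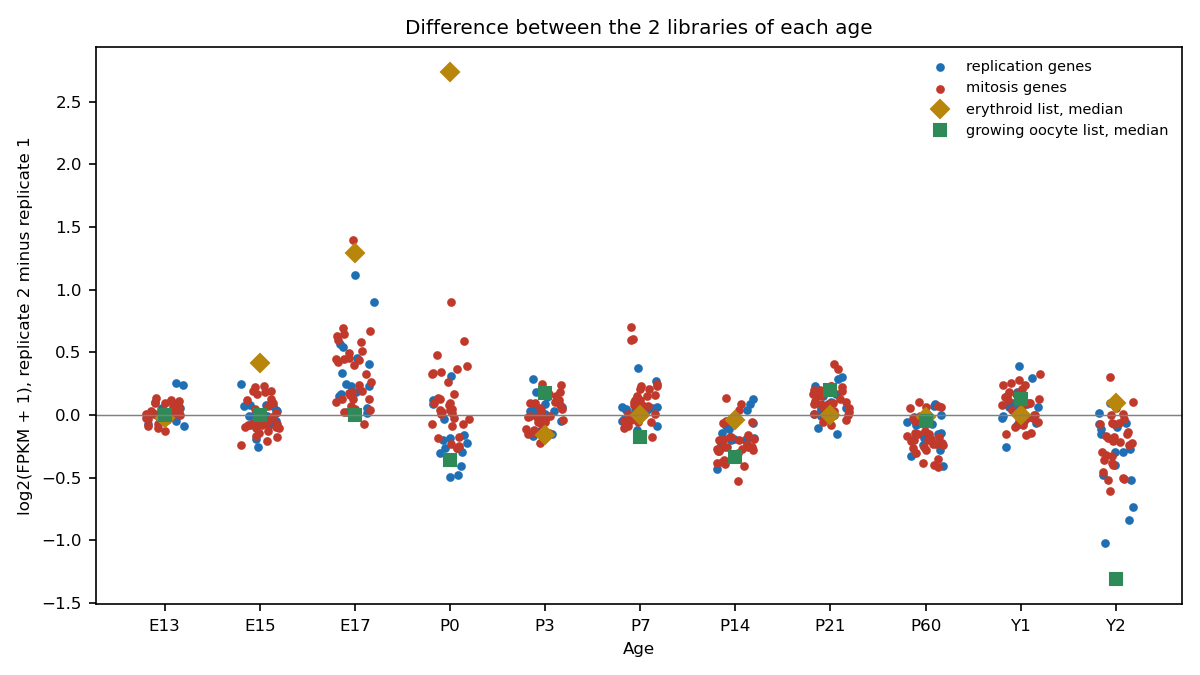
Difference between the 2 libraries of each age, replicate 2 minus replicate 1 on the log2(FPKM + 1) scale (vertical axis), over the 11 ages (horizontal axis). Points are the 47 genes, and diamonds and squares are the medians of the erythroid and growing oocyte lists; at E17 46 of the 47 points lie above 0 and the erythroid median is 1.29.

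The whole set ran downward over life. Every gene of the 47 changed over the 11 ages (limma F test, adjusted p of 1.83e-11 to 0.000402), where 88.1% of all tested genes did. The mean was highest at E13 for 14 of the 16 replication genes and for 23 of the 31 mitosis genes. Of the other replication genes, Ccne2 peaked at E15 and Pcna at P0. The other mitosis genes were highest after birth: Cdk1, Mybl2, Birc5, Ube2c, Prc1, Nuf2 and Ndc80 at P3, and Aurka at P7. The lowest mean was at Y2 for all but Pcna, whose lowest was at Y1. The highest age mean exceeded the lowest by 2.15-fold in Pcna and by 23.3-fold in Ccne1, the cyclin that starts S phase, the extremes of the set.

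**Figure D2:**
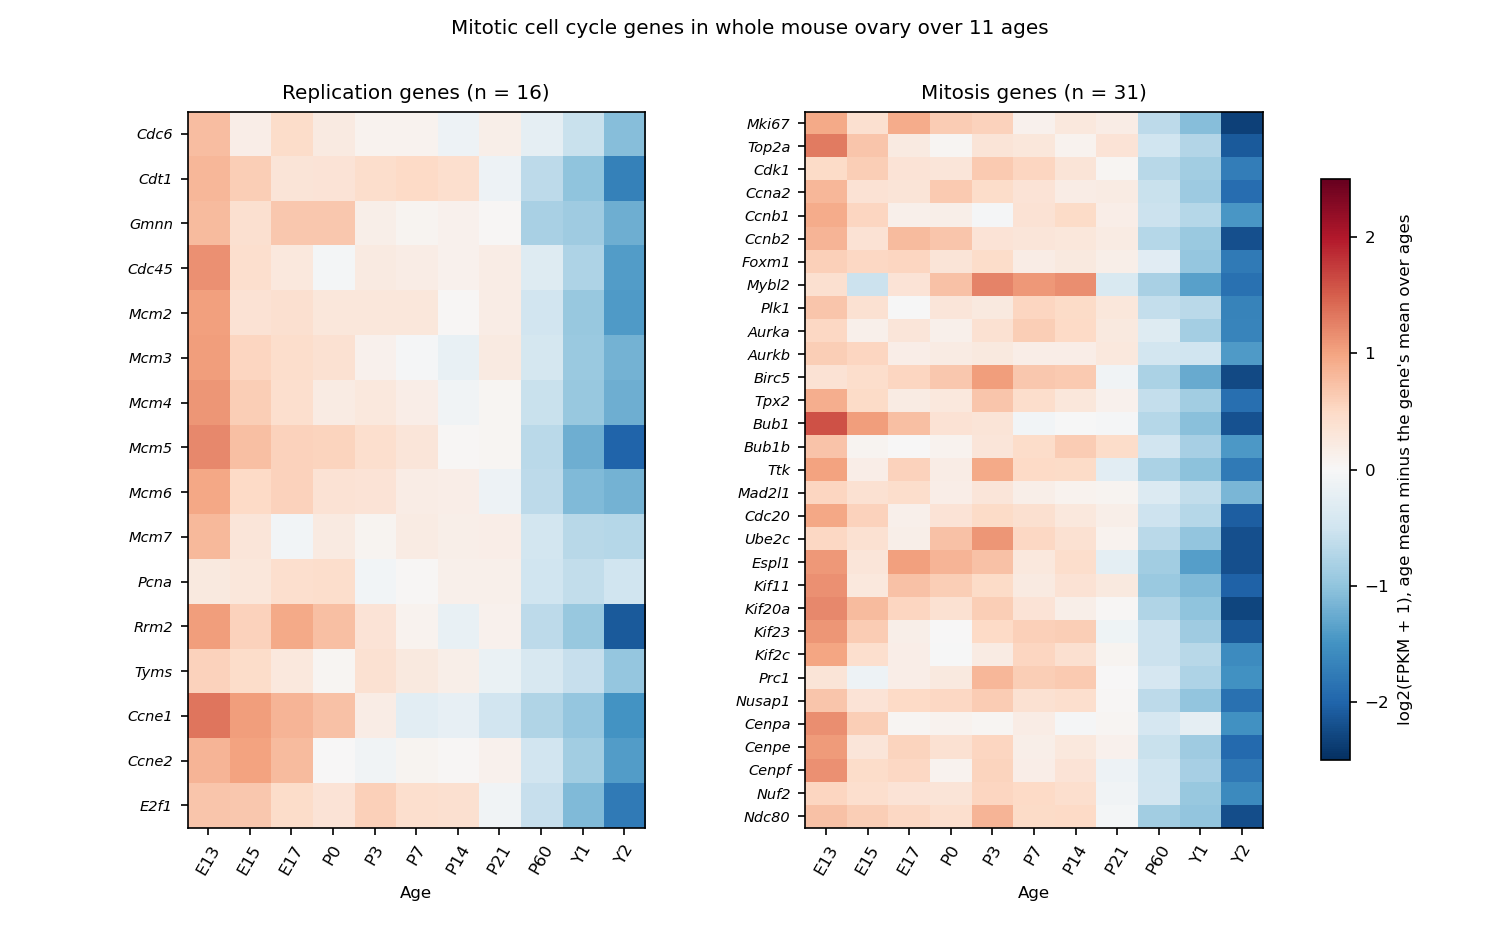
Level of each of the 47 genes at the 11 ages, as the age mean of log2(FPKM + 1) minus the mean of that gene over ages, for the 16 replication genes (left) and the 31 mitosis genes (right). Red is above and blue below the gene's own mean; most rows are reddest at E13 and nearly all are bluest at Y2, and Mybl2, Birc5, Ube2c and Prc1 are reddest at P3.

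By mean over all libraries Mki67 was the most abundant at 34.4 FPKM, followed by Mcm6 at 31.2 and Ccnb2 at 30.6. The least abundant were Cdc6 at 2.08 FPKM, Tyms (thymidylate synthase) at 2.95 and Ccnb1 (cyclin B1) at 3.49. FPKM is per length, but sequence shared with other genes limits how far these levels can be set beside each other. Of the 31-base words of transcripts, 27.8% in Ccnb1 and 23.3% in Pcna also occur in other genes, and 0% in Ccnb2. The order differed by age: the highest means were those of Pcna at 15.3 and Mcm6 at 11.96 FPKM at Y2, and of Mcm5 at 60.9 and Mcm4 at 58.4 FPKM at E13. Through the series Mki67 averaged 57.3 FPKM at E13, 43.7 at P3, 33.1 at P21, 18.2 at P60 and 4.99 at Y2. Ccnb1 had 0.564 and 0.422 FPKM at Y2 and 6.94 and 6.74 at E13, far under its relative Ccnb2, which had 5.13 and 4.83 at Y2 and 46.1 and 50.6 at E13.

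Among replication genes, the 6 MCM subunits were lower at Y2 than at E13 in every library. Mcm5 had 61.5 and 60.3 FPKM at E13, 31.6 and 32.6 at P7, 17.7 and 13.9 at P60 and 6.79 and 4.57 at Y2. Mcm6 had 57.6 and 54.8 FPKM at E13, 33.2 and 31.1 at P7, 17.9 and 17.3 at P60 and 15.6 and 8.29 at Y2. The Y2 libraries differed widely for Mcm6, as they did for Mcm7, at 12.7 and 5.75 FPKM. Pcna stayed nearest to level, with 26.0 and 26.6 FPKM at E13, 33.5 and 27.7 at P0, 25.3 and 23.5 at P21, 16.2 and 14.5 at P60 and 15.8 and 14.8 at Y2. Cdc6 and Cdt1 load the helicase, and Cdt1 was the more abundant throughout, at 4.96 and 2.58 FPKM at Y2 and 26.8 and 25.8 at E13. Cdc6 was at 0.543 and 0.254 FPKM at Y2 and 3.56 and 4.43 at E13.

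Rrm2 and Tyms supply nucleotides. Rrm2 had 27.8 and 29.9 FPKM at E13, 14.1 and 14.7 at P7, 9.52 and 6.93 at P60 and 2.46 and 2.30 at Y2. Gmnn, the geminin that blocks a second round of copying, had 17.4 and 17.3 FPKM at E13, 8.65 and 11.5 at P7, 5.33 and 4.71 at P60 and 3.52 and 3.56 at Y2. Geminin thus kept more of its E13 level at Y2 than the reductase did. E2f1, the transcription factor that drives S phase entry, was at 10.7 and 11.5 FPKM at E13, 8.92 and 9.18 at P7, 4.30 and 3.71 at P60 and 1.11 and 1.26 at Y2.

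Among mitosis genes, Cdk1, the kinase that drives the entry into division, had 13.7 and 14.96 FPKM at E13, 17.1 and 15.6 at P3, 6.41 and 5.11 at P60 and 2.21 and 2.45 at Y2. Its partner Ccna2 (cyclin A2) had 27.0 and 25.4 FPKM at E13, 20.6 and 19.4 at P3, 10.6 and 8.38 at P60 and 3.56 and 2.64 at Y2. Cdk1 thus lay above both E13 libraries at P3, while its cyclin lay under both. The kinetochore genes parted in the same way. Nuf2, of the complex that binds spindle microtubules, had 6.52 and 7.02 FPKM at E13, 6.85 and 6.76 at P3 and 0.905 and 0.667 at Y2. Its partner Ndc80 had 18.1 and 17.6 FPKM at E13, 20.5 and 18.4 at P3 and 1.84 and 1.00 at Y2, so both were near or above their E13 level at P3. Cenpe, a kinetochore motor, had 16.2 and 16.2 FPKM at E13, 10.9 and 10.8 at P3 and 1.09 and 1.17 at Y2. Cenpf, a kinetochore protein, had 15.3 and 15.5 FPKM at E13, 9.94 and 9.82 at P3 and 1.31 and 0.983 at Y2. Both P3 libraries of Cenpe and Cenpf lay under both E13 libraries.

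The anaphase genes followed different courses. Cdc20 had 39.1 and 39.5 FPKM at E13, 27.7 and 27.6 at P3, 13.1 and 13.6 at P60 and 4.28 and 3.57 at Y2. Its partner enzyme Ube2c had 26.2 and 26.5 FPKM at E13, 38.9 and 41.9 at P3, 11.6 and 10.4 at P60 and 3.44 and 2.93 at Y2, with its top at P3 where Cdc20 had its top at E13. Aurkb and Birc5 encode subunits of 1 complex, the chromosomal passengers. Aurkb had 6.196 and 6.24 FPKM at E13, 4.36 and 4.73 at P3, 2.30 and 2.55 at P60 and 0.852 and 0.645 at Y2. Birc5 had 18.4 and 18.4 FPKM at E13, 29.0 and 31.5 at P3, 8.61 and 7.04 at P60 and 2.60 and 1.73 at Y2, above its E13 level at P3 where Aurkb was under it. Foxm1, which switches on genes for mitosis, had 7.77 and 7.87 FPKM at E13, 6.89 and 7.32 at P3, 4.24 and 3.44 at P60 and 1.08 and 0.365 at Y2.

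A total of 5 intervals were then compared, and consecutive intervals share the libraries of E17, P7, P21 or P60, so their results are not independent. The ovary at E17 held less of many cell cycle transcripts than at E13. Of the replication genes 7 of 16 fell, and of the mitosis genes 15 of 31 (limma on log2(FPKM + 1), Benjamini-Hochberg adjusted over 16117 genes and called at 0.05), where 14.2% of all genes fell. Of the 47 genes 0 rose, 0 also at an unadjusted p under 0.05, where 18.6% of all genes rose. Higher genes made up 56.7% of all calls in this comparison and 46.3% after quantile normalization. The median difference was -0.46 for replication and -0.46 for mitosis genes, against 0.03 for all genes.

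The largest falls were in genes of the centromere, the chromosomes and the midzone of the dividing cell. Cenpa, the histone that marks centromeres, had 3.96 and 5.72 FPKM at E17 and 11.3 and 12.2 at E13, a difference of -1.14 (SE 0.17, adjusted p = 0.000138). Top2a, the topoisomerase that untangles sister chromatids, had 19.98 and 30.8 FPKM at E17 and 54.5 and 55.3 at E13, -1.11 (SE 0.15, adjusted p = 6.47e-05). Kif23, a motor of the midzone, had 14.7 and 20.4 FPKM at E17 and 34.4 and 35.2 at E13, -0.96 (SE 0.19, adjusted p = 0.00148). Both E17 libraries lay under both E13 libraries in each of these genes. Cdc45, which joins the MCM ring to form the active helicase, had 7.17 and 9.32 FPKM at E17 and 15.98 and 15.9 at E13, -0.89 (SE 0.15, adjusted p = 0.000429). Of the 6 MCM subunits 5 fell, all but Mcm6, with differences of -0.87 to -0.39 over the 6. Of the 4 checkpoint genes Bub1, Bub1b and Ttk fell, and Mad2l1 was at 8.03 and 8.31 FPKM at E17 and 9.30 and 8.43 at E13. Both mitotic transcription factors missed the threshold, as did Mki67, whose E17 libraries lay on both sides of E13.

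With 1 library left out at a time, 17 to 32 of the 47 genes fell, the most without E17 replicate 2. Markers of other cells moved over the same interval. Of 10 genes of primordial germ cells 9 fell, with summed levels of 31.2 and 26.9 FPKM at E17 and 118 and 121 at E13. Of 14 erythroid genes 11 rose, with sums of 1581 and 3565 FPKM at E17 and 1199.6 and 1212 at E13, and Hba-a2 was listed at 0 at E13. Of 12 granulosa genes 7 rose, with sums of 361 and 331 FPKM at E17 and 170.4 and 179.8 at E13, and Fshr was listed at 0 at E13. Their part in the falls was not tested.

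Between E17 and P7, when follicles form and oocytes begin to grow, mitosis genes moved in both directions, while the replication genes fell or missed the threshold. Of the mitosis genes 5 of 31 rose, where 16.6% of all genes rose, and 5 fell, where 20.7% of all genes fell. Both counts of mitosis genes are near the shares among all genes. Of the replication genes 6 of 16 fell and 0 rose, 0 also at an unadjusted p under 0.05. The median difference was -0.29 for replication genes and 0.10 for mitosis genes, against -0.04 for all genes. The count of genes that rose rests on single libraries: it was 2 without E17 replicate 1, 13 without E17 replicate 2 and 3 without P7 replicate 2. The count of genes that fell was 6 without E17 replicate 2.

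The genes that rose have different roles, and no role rose as a group. Of 4 checkpoint genes 1 rose and 2 fell, and of 4 kinesins 1 rose and 1 fell. Of the 5 spindle and passenger genes 1 rose and 4 missed the threshold. Mybl2 had 17.3 and 17.4 FPKM at P7 and 8.48 and 11.5 at E17, a difference of 0.76 (SE 0.17, adjusted p = 0.00298). Plk1, the kinase that matures centrosomes and drives mitotic entry, had 14.8 and 16.1 FPKM at P7 and 9.81 and 10.8 at E17, 0.54 (SE 0.13, adjusted p = 0.00508). Prc1, which bundles midzone microtubules, had 6.63 and 6.65 FPKM at P7 and 3.80 and 5.43 at E17, 0.46 (SE 0.13, adjusted p = 0.0105). Both P7 libraries lay above both E17 libraries in each of these genes. Bub1b, the checkpoint protein BUBR1, had 19.8 and 19.4 FPKM at P7 and 12.9 and 15.4 at E17, 0.45 (SE 0.14, adjusted p = 0.0228). Kif2c, a kinesin that shortens microtubules at centromeres, was the other gene that rose, with 8.003 and 8.49 FPKM at P7 and 6.13 and 6.23 at E17, 0.36 (SE 0.11, adjusted p = 0.0142). Prc1 and Bub1b lost the call without E17 replicate 1, and Bub1b also without either P7 library and with no filter on low values.

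The largest falls at P7 were in the G1/S cyclin E1, a checkpoint kinase, separase and the nucleotide supply. Ccne1 had 2.27 and 2.19 FPKM at P7 and 4.60 and 7.27 at E17, a difference of -1.08 (SE 0.18, adjusted p = 0.000249). Bub1 had 8.90 and 9.97 FPKM at P7 and 16.9 and 17.9 at E17, -0.82 (SE 0.10, adjusted p = 1.88e-05). Bub1 and Bub1b encode relatives that act at the kinetochore, and here Bub1 fell where Bub1b rose, with no overlap between the ages in either gene. Espl1, the separase that cuts cohesin at anaphase, had 10.5 and 10.1 FPKM at P7 and 17.4 and 18.8 at E17, -0.76 (SE 0.14, adjusted p = 0.000578). Rrm2 had 14.1 and 14.7 FPKM at P7 and 16.6 and 37.1 at E17, -0.75 (SE 0.24, adjusted p = 0.0249). Rrm2 lost the call without E17 replicate 2, the library in which it was high, without either P7 library and with no filter on low values.

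Markers of other cells moved over this interval too. Of 20 growing oocyte genes 19 rose, with a median difference of 4.92 and summed levels of 2783 and 2656 FPKM at P7 and 127 and 91.1 at E17, where Oosp1, Oas1d, Oog1 and Omt2a were listed at 0. Of 12 granulosa genes 10 rose, with sums of 1623 and 1789 FPKM at P7 and 361 and 331 at E17. Of 14 erythroid genes 13 fell, with sums of 96.7 and 119 FPKM at P7 and 1581 and 3565 at E17, and Hbb-y, Hba-x, Hbb-bh1 and Rhag were listed at 0 at P7. Of 16 genes of meiotic prophase 14 fell, with sums of 43.4 and 45.1 FPKM at P7 and 595 and 508 at E17, and Stra8 and Syce3 were listed at 0 at P7. Their part in the changes of the 47 genes was not tested.

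From P7 to P21, as follicles of the juvenile ovary grew, 3 of 16 replication genes and 10 of 31 mitosis genes fell, where 15.7% of all genes fell, and the replication count is near that share. Of the 47 genes 0 rose, where 9.06% of all genes rose, and 1 was higher at an unadjusted p under 0.05, the helicase subunit Mcm3. Higher genes made up 36.5% of all calls here and 47.4% after quantile normalization. Mcm3 had 14.6 and 14.5 FPKM at P21 and 10.8 and 13.2 at P7, and was called higher after median-of-ratios or quantile scaling, without the Y2 libraries (both or either) and without P7 replicate 2. The median difference was -0.07 for replication and -0.25 for mitosis genes, against -0.04 for all genes. The 13 falls became 6 without P21 replicate 1, 8 without P7 replicate 1 and 7 without P7 replicate 2.

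Mybl2, which had risen by P7, fell the most. It had 4.85 and 6.52 FPKM at P21 and 17.3 and 17.4 at P7, a difference of -1.47 (SE 0.17, adjusted p = 2.16e-05). Birc5, the survivin subunit of the chromosomal passenger complex, had 12.3 and 14.3 FPKM at P21 and 24.0 and 22.5 at P7, -0.76 (SE 0.15, adjusted p = 0.00135). Ttk, the kinase MPS1 that starts checkpoint signalling, had 4.18 and 4.503 FPKM at P21 and 7.53 and 8.48 at P7, -0.75 (SE 0.13, adjusted p = 0.000638). In each of these genes both P21 libraries lay under both P7 libraries. Kif23 had 13.7 and 15.3 FPKM at P21 and 24.3 and 24.1 at P7, -0.70 (SE 0.19, adjusted p = 0.0145), and lost the call without either P7 library or without P21 replicate 1. Bub1b was at 19.1 and 20.1 FPKM at P21 and 19.8 and 19.4 at P7, and its libraries overlapped between the ages, as did those of Top2a, at 26.8 and 28.8 FPKM at P21 and 24.8 and 28.8 at P7. Of 20 growing oocyte genes 18 fell over the same interval, with sums of 366 and 429 FPKM at P21 and 2783 and 2656 at P7 and no gene listed at 0. Of 12 granulosa genes 7 rose, with sums of 4352 and 4442 FPKM at P21 and 1623 and 1789 at P7. Their part in the falls was not tested.

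Across puberty both groups of genes fell together. From P21 to P60, 9 of 16 replication genes and 23 of 31 mitosis genes fell, where 6.7% of all genes fell. Of the 47 genes 0 rose, 0 also at an unadjusted p under 0.05, where 6.82% of all genes rose. Both P60 libraries lay under both P21 libraries in all 47 genes, and in 35.3% of all genes tested. The median difference was -0.59 for replication and -0.70 for mitosis genes, against -0.02 for all genes. The 32 falls became 17 without P60 replicate 2 and 18 without P21 replicate 2.

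The kinesin Kif11 fell the most, with 7.86 and 5.80 FPKM at P60 and 15.6 and 17.5 at P21, a difference of -1.17 (SE 0.17, adjusted p = 0.00029). Bub1b had 11.1 and 8.45 FPKM at P60 and 19.1 and 20.1 at P21, -0.95 (SE 0.14, adjusted p = 0.000415). Ccnb2 had 16.6 and 14.8 FPKM at P60 and 26.3 and 35.3 at P21, -0.92 (SE 0.14, adjusted p = 0.00043). Plk1, which with cyclin B and CDK1 commits the cell to mitosis, had 7.12 and 6.01 FPKM at P60 and 11.8 and 13.98 at P21, -0.88 (SE 0.13, adjusted p = 0.00043). Cdk1 and its 3 cyclins Ccna2, Ccnb1 and Ccnb2 all fell, as did the 5 spindle and passenger genes Plk1, Aurka, Aurkb, Birc5 and Tpx2 and all 4 checkpoint genes. Mybl2 and Foxm1 missed the threshold. Of 20 growing oocyte genes 1 fell, with sums of 322 and 327 FPKM at P60 and 366 and 429 at P21. Of 12 granulosa genes 3 fell and 1 rose, with sums of 3119.6 and 3424 FPKM at P60 and 4352 and 4442 at P21, and no gene of either list was at 0. Of 9 luteal and steroidogenic genes 4 rose, with sums of 2779 and 2958 FPKM at P60 and 1496 and 1405 at P21. The part of these cells in the falls was not tested.

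Ovaries of 2 years held the lowest levels of all but Pcna. From P60 to Y2, 14 of 16 replication genes and all 31 mitosis genes fell, where 17.4% of all genes fell. Of the 47 genes 0 rose, 0 also at an unadjusted p under 0.05, where 10.8% of all genes rose. The median difference was -0.81 for replication and -1.29 for mitosis genes, against -0.04 for all genes. With 1 library left out at a time, 41 to 45 of the 47 genes fell.

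Mki67 fell the most, to 5.30 and 4.68 FPKM at Y2, against 19.7 and 16.6 at P60, a difference of -1.68 (SE 0.35, adjusted p = 0.00219). Top2a had 4.43 and 4.16 FPKM at Y2 and 16.2 and 14.03 at P60, -1.61 (SE 0.15, adjusted p = 2.16e-06). Kif23 had 3.51 and 2.16 FPKM at Y2 and 12.1 and 8.93 at P60, -1.60 (SE 0.19, adjusted p = 2.26e-05). Kif20a, the midzone kinesin that partners the passenger complex, had 1.68 and 2.30 FPKM at Y2 and 7.86 and 7.59 at P60, -1.55 (SE 0.11, adjusted p = 1.56e-07). In all 31 mitosis genes both Y2 libraries lay under both P60 libraries, as in 33.2% of all genes tested. Foxm1 was at 1.08 and 0.365 FPKM at Y2 and 4.24 and 3.44 at P60, -1.52 (SE 0.15, adjusted p = 4.38e-06).

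The exceptions at Y2 were both replication genes. Pcna was at 15.8 and 14.8 FPKM at Y2 and 16.2 and 14.5 at P60, a difference of -0.00 (SE 0.10, adjusted p = 0.992) whose 95% interval runs from -0.23 to 0.22. Mcm7 was at 12.7 and 5.75 FPKM at Y2 and 11.4 and 10.8 at P60, -0.33 (SE 0.23, adjusted p = 0.321), and its Y2 libraries lay on either side of P60. The MCM subunits as a group ranged from -1.34 in Mcm5 to -0.33 in Mcm7. Mcm6 lost its call without Y2 replicate 2, without either P60 library and with no filter on low values, and Mcm7 gained one without Y2 replicate 1.

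Many oocyte and granulosa genes were also lower at Y2, and lymphocyte genes higher. Of 20 growing oocyte genes 17 fell, with sums of 131 and 34.7 FPKM at Y2 and 322 and 327 at P60. Of 12 granulosa genes 9 fell, with sums of 1160.0 and 1581 FPKM at Y2 and 3119.6 and 3424 at P60. All 8 tested lymphocyte genes of 12 rose, with sums of 118 and 61.1 FPKM at Y2 and 8.84 and 10.1 at P60. Of 9 luteal and steroidogenic genes 1 fell, Cyp17a1, and the sums of the list were 1885 and 8668 FPKM at Y2, far apart between the libraries, and 2779 and 2958 at P60. Mitochondrial genes made up 23.9% and 24.7% of the summed FPKM at Y2 and 19.5% and 18.9% at P60, and with them left out of the total 45 of the 47 genes fell. No gene of these lists was at 0 in both libraries of either age, and their part in the falls of the 47 genes was not tested.

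**Figure D3:**
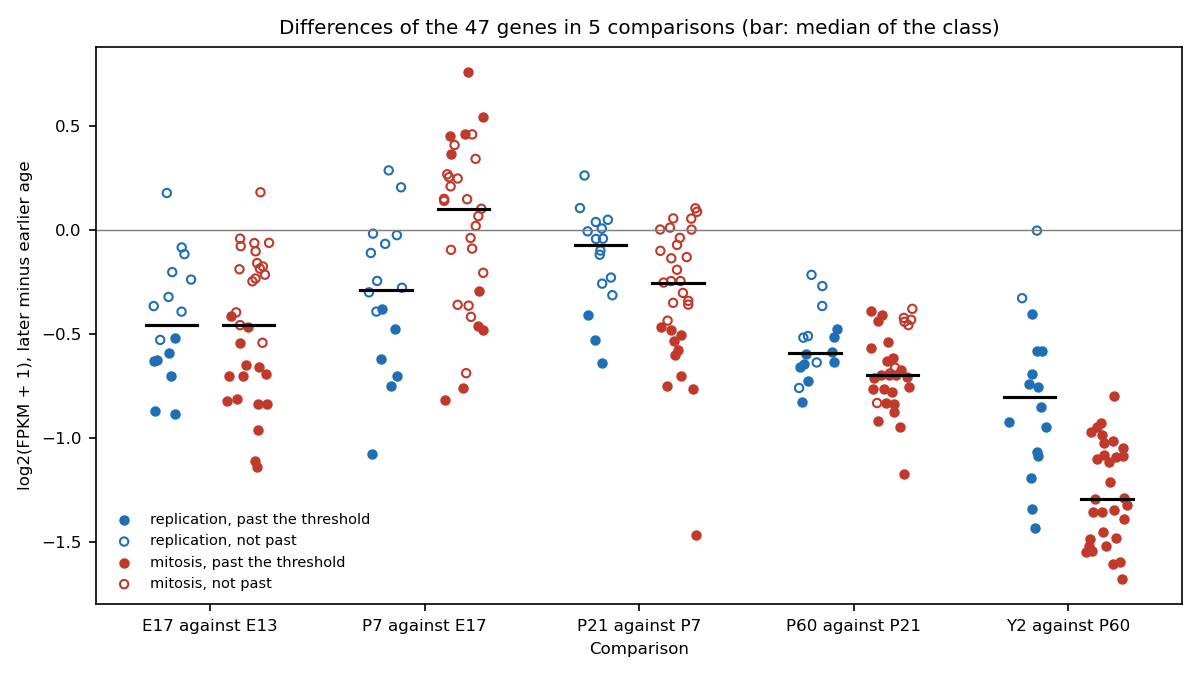
Differences of the 47 genes in the 5 comparisons (horizontal axis), later minus earlier age on the log2(FPKM + 1) scale (vertical axis); blue points are replication genes, red points mitosis genes, filled points passed the threshold and bars are medians. The medians lie apart most at Y2 against P60, at -0.81 and -1.29.

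The balance of replication against mitosis genes changed over life. It is described as the mean log2(FPKM + 1) of the 16 replication genes minus that of the 31 mitosis genes in each library, with no test. It was positive in both libraries of each fetal age, at 0.11 and 0.13 at E13, 0.19 and 0.20 at E15 and 0.15 and 0.15 at E17. At P0 the libraries parted, at 0.20 and -0.10, though the ratio of the median FPKM of replication to mitosis genes was over 1 in both, at 1.302 and 1.18. Mitosis genes were ahead at P3 (-0.26 and -0.24), P7 (-0.13 and -0.21) and P14 (-0.29 and -0.22), the ages with the highest sums of growing oocyte genes. The balance of means was near 0 at P21 (0.03 and -0.02), where the ratio of medians was 1.202 and 1.33, against 1.35 and 1.35 at E13. It was positive at P60 (0.10 and 0.14), Y1 (0.07 and 0.05) and Y2. At Y2 it was 0.63 and 0.51, the widest of all ages, with a mean of 2.08 for the replication genes and 1.503 for the mitosis genes. With a pseudocount of 0.1 FPKM in place of 1 the mean balance was 0.66 at Y2 and -0.03 at P21.

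**Figure D4:**
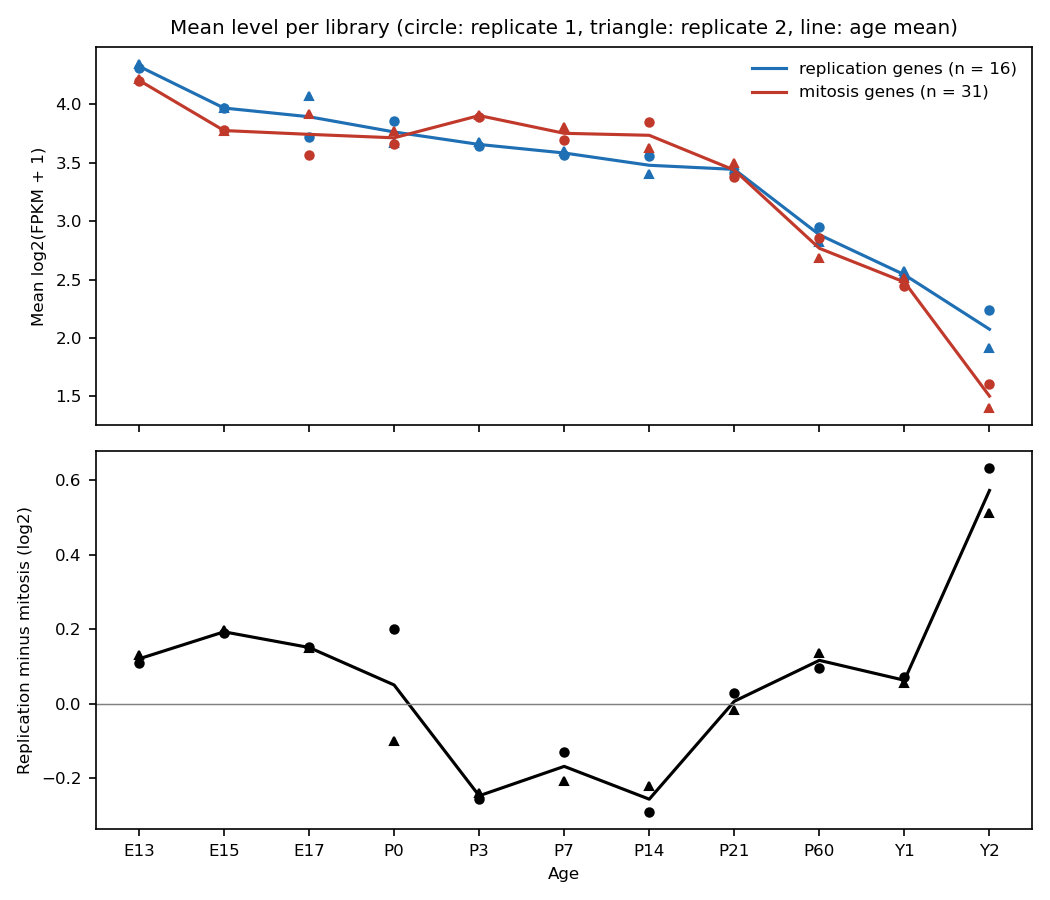
Mean log2(FPKM + 1) of the 16 replication and 31 mitosis genes in each library at the 11 ages (upper panel) and the replication mean minus the mitosis mean (lower panel); circles are replicate 1, triangles replicate 2, lines age means. The lower panel is under 0 in both libraries at P3, P7 and P14 and highest at Y2.

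Some mitosis genes kept or raised their levels at the ages rich in growing oocytes. Likeness to the oocyte was described by the Pearson correlation of the 11 age means of a gene with the mean of 20 growing oocyte genes, all taken from the same libraries, with no p. The highest were Mybl2 (0.47), Prc1 (0.45), Aurka (0.29), Bub1b (0.29), Birc5 (0.24) and Ube2c (0.23), all of them mitosis genes. The lowest were Ccne1 (-0.43), Ccne2 (-0.30) and Mcm3 (-0.29), all replication genes. Over the 8 postnatal ages alone the 6 highest were Kif23 (0.82), Kif2c (0.81), Prc1 (0.80), Aurka (0.80), Bub1b (0.79) and Tyms (0.77), the last a replication gene. Prc1, Aurka and Bub1b were thus among the 6 highest both ways, Mybl2 at 0.77 was not, and Ccne1 at 0.33, Ccne2 at 0.68 and Mcm3 at 0.44 turned positive. Over these 8 ages all 47 genes correlated positively, from 0.33 in Ccne1 to 0.82 in Kif23. The postnatal values therefore set the 6 highest little apart from the other genes. Over the 11 ages none of the 47 followed the oocyte genes as closely as it followed the other 46 members, with which correlations were 0.81 to 0.99. The correlation with the other members was not computed for the postnatal ages alone. Taken relative to the mean of the 47 genes at each age, a measure added after the data were seen, 11 of 31 mitosis genes and 0 of 16 replication genes had a correlation over 0.5 with the oocyte genes. In the same measure 8 replication genes and 1 mitosis gene, Bub1, were under -0.5. Prc1 was then highest at 0.87, followed by Aurka at 0.80 and Mybl2 at 0.80, and Ccne1 lowest at -0.92. Deviations from that mean cancel out over the 47 genes at each age, so positive correlations of some genes force negative ones in others. The counts also use the same values as the balance of replication against mitosis genes, and add no support of their own.

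Mybl2, Prc1 and Aurka were lower at E15 than at E13 and higher again between P3 and P14. Mybl2 had 5.36 and 4.65 FPKM at E15, 18.8 and 20.1 at P3, 20.9 and 15.9 at P14 and 4.85 and 6.52 at P21. Prc1 had 3.74 and 3.40 FPKM at E15, 7.38 and 8.50 at P3, 7.38 and 6.43 at P14 and 4.04 and 4.04 at P21. Aurka, the kinase of centrosomes and spindle poles, had 7.65 and 7.94 FPKM at E15, 8.58 and 10.3 at P3, 11.1 and 9.79 at P14 and 7.82 and 9.33 at P21. In these 3 genes both P14 libraries lay above both E15 and both P21 libraries. Birc5 had 17.9 and 21.2 FPKM at E15, 29.0 and 31.5 at P3, 25.1 and 20.8 at P14 and 12.3 and 14.3 at P21. Ube2c had 23.3 and 25.0 FPKM at E15, 38.9 and 41.9 at P3, 26.1 and 21.7 at P14 and 18.7 and 20.1 at P21, with its top at P3. The passenger and the E2 enzyme thus had both P3 libraries above those of the other 3 ages. Bub1b held its level longer than these, with 19.1 and 20.1 FPKM at P21 and 24.5 and 19.98 at P14. Ccne1 ran the other way, with 6.98 and 6.94 FPKM at E15, 3.28 and 3.48 at P3, 2.84 and 1.85 at P14 and 1.76 and 1.75 at P21. The G1/S cyclin was lower at each later of these ages by its mean. Summed growing oocyte levels were 9.15 and 8.06 FPKM at E15, 2106 and 2384 at P3, 3294 and 2527 at P14 and 366 and 429 at P21. Granulosa sums were 179.9 and 195 FPKM at E15, 571 and 626 at P3, 1661 and 1674 at P14 and 4352 and 4442 at P21. Which cells hold these transcripts was not tested.

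**Figure D5:**
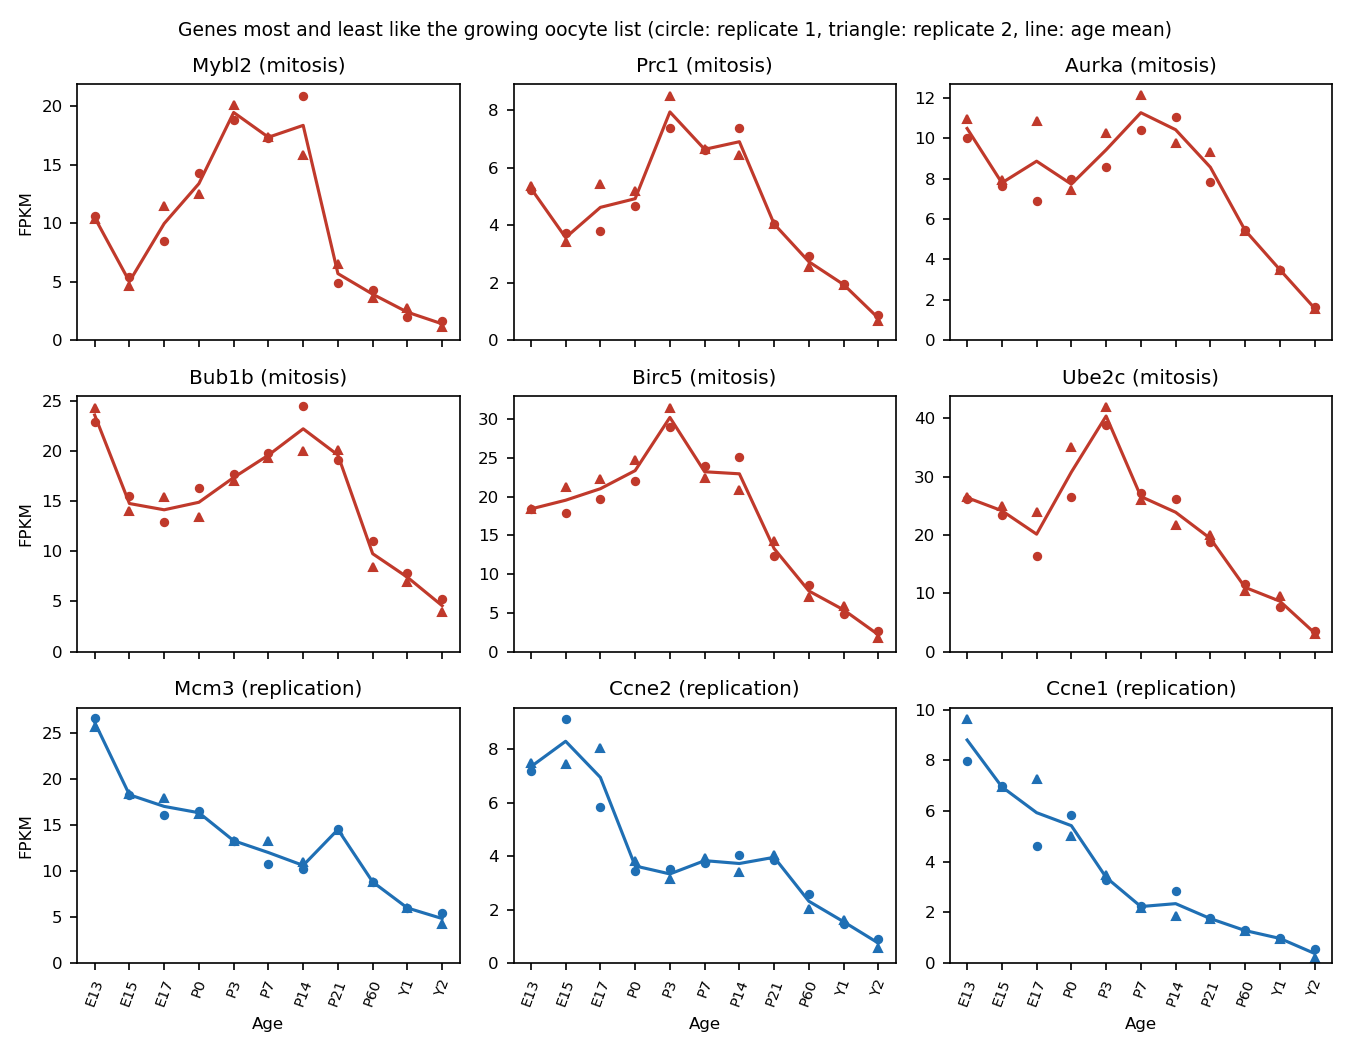
FPKM (vertical axes) at the 11 ages (horizontal axes) of the 6 genes most like the growing oocyte list and the 3 least like it; circles are replicate 1, triangles replicate 2 and lines age means. Mybl2, Prc1, Birc5 and Ube2c peak at P3 and the 3 replication genes in the bottom row are highest at E13 or E15.

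Other genes of the same machinery, listed by function, were counted in the same fit. Of 42 other replication genes 18 fell at E17 against E13, 6 rose and 10 fell at P7 against E17, and 13, 20 and 29 fell in the following 3 comparisons. Of 47 other mitosis genes tested, 1 rose and 23 fell at E17, 9 rose and 10 fell at P7, and 22, 34 and 43 fell at P21, P60 and Y2. At P7 the shares that rose are near the 16.6% of all genes. Among all genes tested 14.2%, 20.7%, 15.7%, 6.7% and 17.4% fell in the 5 comparisons in order of age. Uhrf1, which reads hemimethylated DNA behind the fork, had 51.7 and 50.5 FPKM at P7 and 28.8 and 35.1 at E17, 0.67 (SE 0.16, adjusted p = 0.00489). It fell to 16.9 and 18.3 FPKM at P21, -1.49 (SE 0.16, adjusted p = 1.19e-05), and was at 3.12 and 1.77 FPKM at Y2 against 12.4 and 10.7 at P60. Tacc3, a spindle protein and partner of Aurka, had 20.7 and 20.2 FPKM at P7 and 7.46 and 9.004 at E17, 1.22 (SE 0.15, adjusted p = 1.57e-05), and 7.95 and 8.11 at P21. Both thus had their P7 libraries above those of E17 and P21, the course of Mybl2. Pttg1, the securin that holds separase, had 16.04 and 8.53 FPKM at P7 and 4.38 and 5.10 at E17, 1.15 (SE 0.20, adjusted p = 0.000405). Rfc4, a subunit of the clamp loader, had 10.5 and 9.39 FPKM at P7 and 22.1 and 22.1 at E17, -1.08 (SE 0.21, adjusted p = 0.00101).

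The other largest changes of these lists past the threshold were as follows. At E17 against E13 the fork proteins Clspn and Pole differed by -0.95 and -0.89, and the mitotic phosphatase Cdc25c and the spindle protein Ckap2 by -0.95 and -0.85. At P21 against P7 the origin subunit Orc1 differed by -0.87 and the kinesin Kif4 by -1.05. At P60 against P21 Timeless, of the fork protection complex, differed by -0.84, the histone chaperone subunit Chaf1a by -0.72, the kinase Pbk by -1.10 and the centromere protein Cenpm by -1.02. At Y2 against P60 the origin-firing kinase Cdc7 differed by -1.25, the kinetochore subunit Spc24 by -1.62 and Ckap2 by -1.55.

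Brakes and G1 regulators hold cells before S phase or release them. Of 30 such genes 5 rose and 6 fell at E17 against E13, 4 rose and 9 fell at P7, 2 rose and 3 fell at P21, 3 rose and 2 fell at P60, and 2 rose and 11 fell at Y2. Up to P60 most of these shares are near or under those of all genes, for example 18.6% rising and 14.2% falling at E17, and at Y2 17.4% of all genes fell. Cdkn1b, the inhibitor p27, had 42.7 and 59.0 FPKM at E17 and 15.1 and 11.8 at E13, 1.84 (SE 0.18, adjusted p = 2.79e-06). Ccnd1 (cyclin D1) had 7.11 and 8.35 FPKM at E17 and 33.6 and 35.7 at E13, -2.03 (SE 0.25, adjusted p = 2.84e-05). Over this interval 22 of the 47 genes fell, and a link to Cdkn1b or Ccnd1 was not tested. At P7 against E17 the inhibitor p57, Cdkn1c, had 13.3 and 10.3 FPKM at P7 and 113 and 97.5 at E17, -3.06 (SE 0.30, adjusted p = 1.61e-06). Cdkn1b fell again there, to a mean of 15.5 FPKM at P7 from 50.9 at E17, -1.64 (SE 0.18, adjusted p = 4.67e-06). Of the 47 genes 5 rose and 11 fell over that interval. At P21 against P7 Cdkn1c and E2f5, an E2F that represses, differed by -1.41 and -1.07. Cdkn2b, the inhibitor p15, had 10.7 and 8.60 FPKM at P60 and 0.855 and 0.867 at P21, 2.51 (SE 0.37, adjusted p = 0.000338), and Cdkn2a, the locus of p16 and ARF, differed by 0.98. At Y2 against P60 Cdkn2b differed by -1.34 and the inhibitor p21, Cdkn1a, by -0.90, the largest changes past the threshold in a list where 17 of 30 genes missed it. The Y2 libraries of Cdkn2b lay far apart, with a mean of 3.91 and an SD of 3.65 FPKM.

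Some genes that control the oocyte's own divisions changed by more than any of the 47. Of 16 such genes 3 rose and 2 fell at E17 against E13, 5 rose and 4 fell at P7, and 9, 2 and 5 fell in the following 3 comparisons, with 2 rising at Y2. At E17 these shares are near those of all genes, 18.6% rising and 14.2% falling, and at P21 15.7% of all genes fell. Btg4, which clears maternal RNA as the egg matures, had 30.0 and 28.4 FPKM at P7 and 0.507 and 0.176 at E17, 4.504 (SE 0.25, adjusted p = 3.69e-09). Mos, the kinase that holds the egg in metaphase, had 21.4 and 15.8 FPKM at P7 and 0.408 and 0.424 at E17, 3.78 (SE 0.26, adjusted p = 3.3e-08), and fell to 5.14 and 4.63 at P21, -1.72 (SE 0.26, adjusted p = 0.000187). Ccnb3, a B-type cyclin of meiosis, had 16.5 and 22.3 FPKM at E17 and 1.55 and 1.66 at E13, 2.95 (SE 0.15, adjusted p = 4.31e-09). It was at 0.533 and 0.522 FPKM at P7. Among B cyclins, then, Ccnb3 was higher at E17 than at E13 in both libraries, where Ccnb1 fell and Ccnb2 missed the threshold. Cpeb1, which controls the translation of stored cyclin B RNA, differed by 1.51 at E17 against E13 and by -1.82 at P21 against P7. The inhibitory CDK1 kinases Pkmyt1 and Wee1 differed by -0.67 and -0.55 at P60 against P21, and at Y2 against P60 Btg4 and Mos differed by -1.64 and -1.31. All differences named here passed the threshold.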

How the data were processed

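Bulk RNA of whole CD1 mouse ovaries was sequenced at 11 ages with 2 libraries each. The values are the FPKM per gene that the authors deposited, 34745 genes in 22 columns. Per the submitters' processing notes HISAT2, StringTie, edgeR and build mm10 were used, while the series' design text names TopHat, so the aligner is not settled. The annotation release is not given in the sources used here.

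Because FPKM hold no read counts, log2(FPKM + 1) was fitted with limma 3.58.1 (R 4.3.3): age as a factor of 11 levels, all 22 libraries in 1 fit with 11 residual degrees of freedom, variance prior with an intensity trend, and a filter of at least 1 FPKM in 2 libraries, which left 16117 genes. P-values are two-sided, adjusted by Benjamini and Hochberg over these genes and called at 0.05. A log2(FPKM + 1) difference understates the change of low genes. The fit was also run on simulated data with independent noise and shifts at E17 alone. Those data held no shift shared by a whole library and no other change with age. They therefore do not show how the fit performs on the present libraries. Figures and levels were made in Python 3.11.15 with pandas 2.3.3, numpy 2.4.6 and matplotlib 3.10.9.

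Read depth was estimated from the steps between low FPKM values of single-transcript genes, at 11470000 to 18140000 reads per library, and 94.4% to 97.1% of the 1156 to 1444 values checked (under 0.2 FPKM) came out within 0.02 of a whole read. Depth rests on this estimate alone, and no count test was run.

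The members and gene lists were chosen with earlier results of these data known. Named with values are the 4 members with the largest increase and the 4 with the largest decrease past the threshold in each comparison, the 6 most and 3 least like the oocyte list, the 3 most and 3 least abundant, and the 2 genes of each other cell cycle list with the largest change past the threshold per comparison; marker lists are given by counts, sums and genes at 0. The other members given to show their roles were chosen after their values were seen. Promoter windows are RefSeq's for GRCm38.p6. Alternatives were another pseudocount, no filter, 3 other scalings, no intensity trend, a replicate block, a fit without Y2 and each library left out.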

Additional observations from a re-analysis of the deposited data

How the results depend on the processing

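All 47 genes changed over the 11 ages under each alternative run, and none of the 24 differences listed as largest rises or falls of the 47 genes changed direction. Over the 8 postnatal ages all 47 genes correlated positively with the oocyte list. Ccne1, Ccne2 and Mcm3, the lowest over the 11 ages, were then at 0.33, 0.68 and 0.44. The 24 differences gave 716 values over the 30 alternatives, and 12 of these 716 no longer passed the threshold. Those were for Bub1b, Rrm2 and Prc1 at P7 against E17 and for Kif23 at P21 against P7. The cause was not tested. Other calls among the 47 genes also changed, such as that of Mcm6 at Y2 against P60. The count of genes higher at P7 against E17 was 8 after median-of-ratios and 8 after quantile scaling, against 5 as reported. At P21 against P7, 1 gene was higher after either scaling and in the fit without Y2, against 0. With 1 library left out at a time, genes higher at P7 against E17 numbered 2 to 13 and genes lower 6 to 13. At P21 against P7 genes higher numbered 0 to 1 and genes lower 6 to 16. At P60 against P21 genes lower numbered 17 to 37, at Y2 against P60 41 to 45 and at E17 against E13 17 to 32. With a pseudocount of 0.1 FPKM the replication minus mitosis mean was 0.15 at E17, -0.29 at P3, -0.31 at P14, -0.0273 at P21 (0.01 as reported), 0.0229 at Y1 and 0.66 at Y2. Over the 8 postnatal ages 3 of the 6 genes most like the oocyte list (Prc1, Aurka and Bub1b) were the same. The replicate numbers did not pair the libraries: over 55 pairs of ages the deviations correlated at -0.129 to 0.265, with 1 pair over 0.1. With the replicate block 47 genes changed over age, 22 were lower at E17 against E13, 5 higher and 10 lower at P7 against E17, 12 lower at P21 against P7, 32 at P60 against P21 and 45 at Y2 against P60. With 2 libraries an age, small differences of low genes could not be resolved at this depth.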
